A study of Homo sapiens with 3 samples.

Results

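Homologous recombination and Fanconi genes were examined as a set of 35 genes, chosen by name, among 33423 genes counted across 3 single-cell RNA libraries. Earlier results of these data were known when the set was chosen. The set holds the BRCA complexes, the recombinase paralogues and their partners, the end-sensing complex, the dissolution complex, the Fanconi core and ID pair, the checkpoint kinases and PARP1. The libraries were made by Drop-seq, which captures cells in droplets and tags each transcript with a unique molecular identifier (UMI), from the prostate cancer lines VCaP and LNCaP. VCaP parental cells were kept for 48 h in 0.1% DMSO, the vehicle. VCaP-ENZ48 cells were kept for 48 h in 10 µM enzalutamide (ENZ), an androgen receptor inhibitor. LNCaP-ENZ168 cells were kept for 168 h in the same dose. The labels describe every sample as ENZ sensitive. No LNCaP sample in vehicle was analysed here, so line, treatment time and library differ together in any comparison with LNCaP-ENZ168. The median UMIs per kept cell were 17817 in VCaP parental, 11224 in VCaP-ENZ48 and 5389 in LNCaP-ENZ168.

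Homologous recombination repairs a broken chromosome by copying from an intact sister, which restricts it largely to cells that have begun to replicate their DNA. Breaks are sensed and trimmed, a recombinase is loaded onto the exposed strand with the help of BRCA proteins and paralogues, and the joined molecules are then separated. Fanconi proteins unhook crosslinks between strands and hand the resulting break to the same machinery. In prostate cancer, inherited or acquired loss of several of these genes is the basis for treatment with PARP inhibitors.

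The kept cells numbered between 944 and 997 of 1000 barcodes per library, with 19515202 UMIs in VCaP parental, 14301287 in VCaP-ENZ48 and 6313283 in LNCaP-ENZ168. Each group had 1 library, so no difference below has a replicate check, no test was made, and intervals cover counting error only. ERG, which the VCaP fusion drives, had 2052, 816 and 0 UMIs in that order, and all 7 luminal prostate markers were detected in each library. The 10 markers of immune, stromal, endothelial and basal cells together reached at most 3.80 CPM in any library, CPM being the UMIs of a gene scaled to the same total in every library. Barcodes whose last base is N made up 859, 820 and 205 of the kept cells, and each pair of libraries shared 1 barcode.

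UMIs of all 35 genes were found in every library. Their sum was 1710 CPM in VCaP parental, 865 CPM in VCaP-ENZ48 and 1677 CPM in LNCaP-ENZ168, so VCaP-ENZ48 lay below the other libraries. The sum without PARP1 was 1247, 508 and 1189 CPM. VCaP-ENZ48 was the lowest library for 31 of the 35 genes. The exceptions were FANCC and ATM, lowest in VCaP parental, and RAD50 and FANCB, lowest in LNCaP-ENZ168. The share of all genes that were lowest in VCaP-ENZ48 was not counted. All genes had a median log2 ratio of 0.64 for LNCaP-ENZ168 over VCaP-ENZ48, so low values there were not particular to the set. The highest library was VCaP parental for 17 genes, LNCaP-ENZ168 for 16, and VCaP-ENZ48 for RAD50 and FANCC, again with no share of all genes counted. Between the highest and the middle library, the interval of the ratio held 0 for BRIP1, RAD51D, XRCC3, RAD54L, RMI2, FANCC, FANCE, FANCM and ATM. Between the middle and the lowest it held 0 for PALB2, RAD51B, RAD54B, RMI2, FANCB, FANCC, FANCE, FANCF and FANCL. The order of those libraries is thus not settled for these genes. When each cell was thinned to 2000 UMIs, at least 1 UMI of the set was left in 94.2% of VCaP parental cells (exact binomial 95% interval 92.5 to 95.6%). In VCaP-ENZ48 this held for 79.6% of cells (76.9 to 82.2%) and in LNCaP-ENZ168 for 94.1% (92.4 to 95.5%). Before thinning the shares were 100%, 97.8% and 99.8%.

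**Figure D1:**
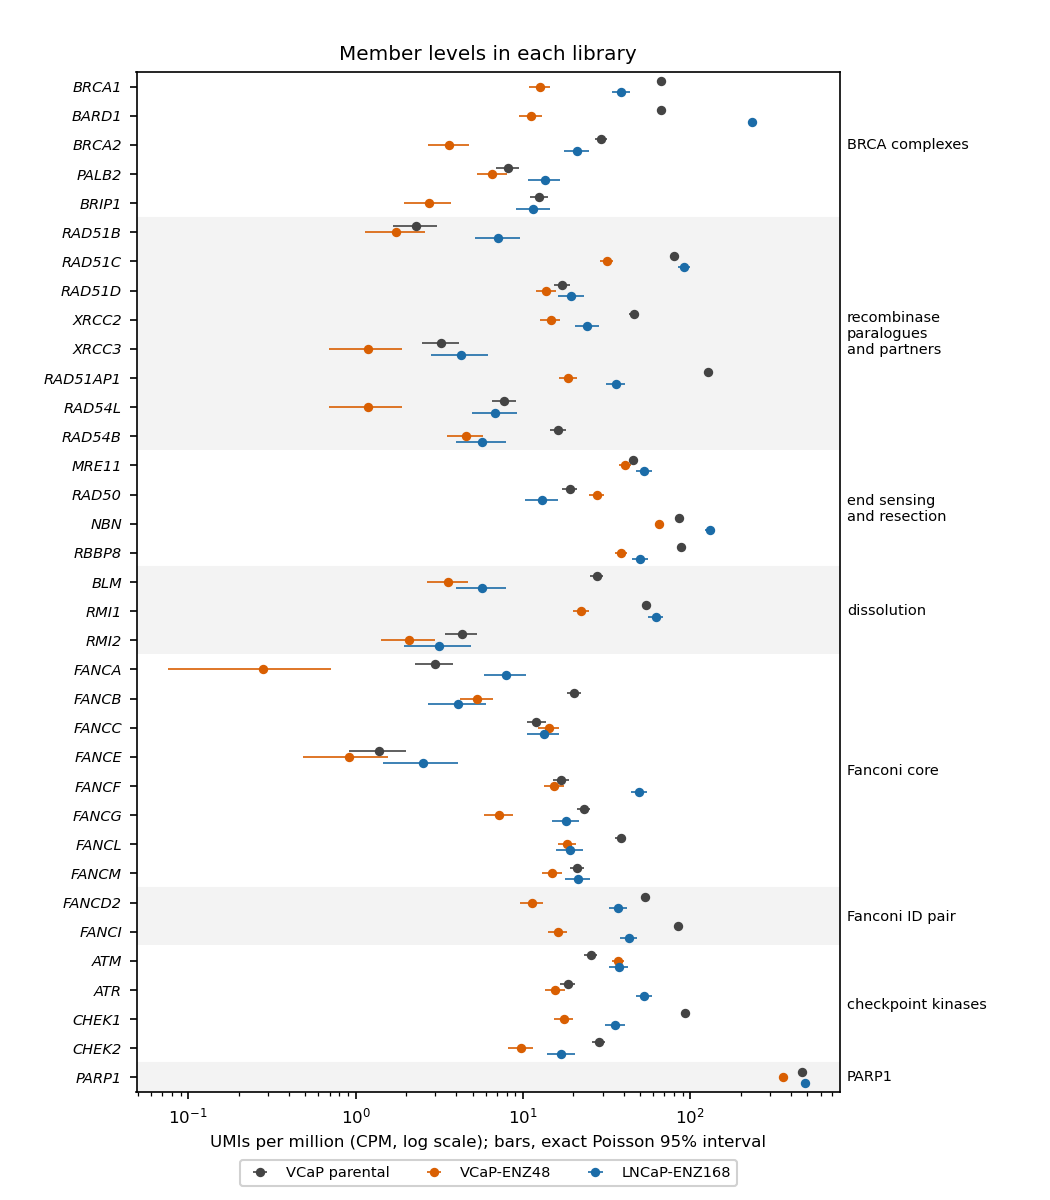
Level of each gene in CPM (log scale) in VCaP parental, VCaP-ENZ48 and LNCaP-ENZ168, with exact Poisson 95% intervals as bars and genes grouped by role. VCaP-ENZ48 lies lowest for 31 of 35 genes, a count with no share of all genes beside it. For some of these, such as PALB2 and FANCF, the interval of the ratio to the middle library held 0. BARD1 in LNCaP-ENZ168 lies at 234 CPM against 66.5 and 11.1 CPM in the VCaP libraries.

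How these genes stood after a short exposure to ENZ was asked by setting VCaP-ENZ48 against its vehicle control. Most genes were lower, with BRCA1, BARD1, BRCA2, FANCD2, FANCI and CHEK1 all lower by more than 2 on the log2 scale, while ATM and RAD50 were higher. Ratios are log2 ratios of CPM + 1, the 95% intervals beside them are for the ratio of counts without the added 1, and a gene was called at a 2-fold difference provided its mean over the pair reached 5 CPM. Of the 29 genes past that minimum, 18 were lower by 2-fold or more and 0 were higher, against 5.95% of all 10049 genes lower and 10.5% higher. Their median ratio was -1.31, against 0.01 for all genes, and 26 of the 29 ratios were below 0. BRCA2, BRIP1, RAD54B and BLM passed the minimum only through their level in VCaP parental. Without a minimum, 20 of 35 genes were lower and 0 higher, against 2.28% of all genes lower and 6.44% higher. The counting interval lay below 0 for 28 of the 35 genes, above 0 for 2, and held 0 for 5. Intervals were not counted over all genes, so these counts have no background.

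The count of lower genes changed little with the scaling, which shifts all genes alike. With the TMM factors of edgeR the all-gene median shifted by -0.28, 18 genes of the set were lower and 0 higher, and the background was 11.2% lower and 6.83% higher. With median-of-ratios factors the shift was -0.43, and 19 were lower and 0 higher against a background of 16.4% and 4.96%. Scaling to totals without mitochondrial and ribosomal protein genes shifted the all-gene median by 0.16. It left 18 lower and 0 higher, against 4.74% and 14.15% of all genes.

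Promoters were read because so many of these genes were low together, and because factors of the E2F family are known to switch on replication and repair genes as cells enter S phase. RefSeq promoters on GRCh38.p14, from 250 bases before to 50 after the start, were at hand for 31 of the 35 genes. A single start was read per gene, and other starts of the same gene were not searched. An E2F core (TTCCCGC and its forms with another middle, namely TTCGCGC but also TTGCCGC and finally TTGGCGC) on either strand was found in 16 of 31, or 51.6%, against 13.1% of 27305 promoters. It was found in 8 of 16 genes lower in VCaP-ENZ48, in 4 of 10 within 2-fold and in 4 of 5 below the minimum, so matches stood on both sides of the call. The core was searched after the longer form (the core with a further T in front) had been seen in 4 of 31, against 3.33% of all. The cell cycle homology region, TTTGAA or TTCGAA, was found in 3 of 31 against 16.6% of all, and CCAAT in 14 of 31 against 35.7%. The 27305 promoters were not matched to the set for base composition or type of gene, so these shares are descriptions only. No binding was measured here, and a match is a run of letters only. A part of E2F factors in the lower levels was not tested. Of the 6 genes with the lowest VCaP ratios, BARD1, RAD51AP1 and BLM held a core. BRCA1, BRCA2 and CHEK1 held none at the start that was read. Of the 4 with the highest, FANCC and FANCF held one and ATM and RAD50 did not. The BRCA1 start that was read (within chr17:43170308-43170427) lay outside the annotated gene, which ends at 43170245. The CHEK1 start (within chr11:125626129-125626248) lay inside its gene, which begins at 125625163, and the BRCA2 start lay inside its gene, which begins at 32315086. The lack of a core in these genes holds for those starts only. The 5 stretches below run from 100 bases before to 20 after the start, in lower case, with an E2F core or cell cycle homology match in capitals. They show genes with and without a match among the lowest ratios (RAD51AP1, BLM, BRCA2) and among the highest (FANCC, RAD50).
RAD51AP1, chr12:4538790-4538909, plus strand, E2F core once: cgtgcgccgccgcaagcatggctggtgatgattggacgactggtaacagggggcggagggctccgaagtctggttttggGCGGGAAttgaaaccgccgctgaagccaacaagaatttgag
BLM, chr15:90717246-90717365, plus strand, E2F core 2 times, with a further match outside this stretch: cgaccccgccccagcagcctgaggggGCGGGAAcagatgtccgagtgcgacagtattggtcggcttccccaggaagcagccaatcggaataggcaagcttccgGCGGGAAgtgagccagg
BRCA2, chr13:32315408-32315527, plus strand, with no match: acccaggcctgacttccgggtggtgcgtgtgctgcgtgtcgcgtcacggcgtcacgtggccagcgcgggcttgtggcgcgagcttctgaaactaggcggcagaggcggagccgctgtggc
FANCC, chr9:95317690-95317809, minus strand, E2F core once, with a further match outside this stretch: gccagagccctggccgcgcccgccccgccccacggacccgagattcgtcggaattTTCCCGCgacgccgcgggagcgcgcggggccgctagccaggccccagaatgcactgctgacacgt
RAD50, chr5:132556877-132556996, plus strand, with no match: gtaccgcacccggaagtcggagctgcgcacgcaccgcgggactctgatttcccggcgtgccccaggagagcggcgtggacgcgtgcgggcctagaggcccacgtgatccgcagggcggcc
In RAD51AP1 and BLM the match is GCGGGAA, the core TTCCCGC read on the other strand, and in FANCC it is TTCCCGC itself.

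The BRCA complexes held 4 lower genes of 5, with a median ratio of -2.32. Of these, BRCA2 and BRIP1 passed the minimum only through VCaP parental. For this and the groups of genes below, 5.95% of all genes were lower between the VCaP libraries. BRCA1 (GRCh38 chromosome 17, 43044295 to 43170245, minus strand), which with BARD1 forms a ubiquitin ligase that favours recombination at breaks, was at 67.0 CPM (95% interval 63.4 to 70.7) in VCaP parental. It was at 12.6 CPM (10.8 to 14.6) in VCaP-ENZ48 and 38.7 CPM (34.0 to 43.8) in LNCaP-ENZ168. VCaP parental was the highest library and VCaP-ENZ48 the lowest, with no overlap of intervals, and the VCaP ratio was -2.32 (-2.65 to -2.19). BARD1 (chromosome 2, 214725646 to 214809683, minus strand) was at 66.5 CPM (62.9 to 70.2), 11.1 CPM (9.46 to 12.99) and 234 CPM (223 to 247) in the same order. Its VCaP ratio of -2.48 (-2.83 to -2.34) was close to that of its partner, whereas LNCaP-ENZ168 stood far above both VCaP libraries. BRCA2 (chromosome 13, 32315086 to 32400268, plus strand) loads the recombinase and had a ratio of -2.72 (-3.46 to -2.61). This was the lowest ratio beside that of RAD51AP1, -2.71, and their order turned with TMM factors. The levels of BRCA2 were 29.5 CPM (27.1 to 31.97), 3.64 CPM (2.72 to 4.77) and 21.1 CPM (17.6 to 24.97), the middle value on 52 UMIs. BRIP1, a helicase that binds BRCA1, was at 12.5, 2.73 and 11.6 CPM, a VCaP ratio of -1.86 (-2.72 to -1.71). PALB2, which bridges BRCA1 and BRCA2, was at 8.15, 6.57 and 13.5 CPM. Its VCaP ratio of -0.27 (-0.69 to 0.07) held 0, unlike those of the proteins it joins.

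Among the recombinase paralogues and partners, 4 of the 5 genes past the minimum were lower, of which RAD54B passed only through VCaP parental. RAD51AP1 (chromosome 12, 4538798 to 4560047, plus strand) helps the recombinase invade the intact copy and was at 127 CPM (122 to 132) in VCaP parental. The level was 18.5 CPM (16.4 to 20.9) in VCaP-ENZ48, a ratio of -2.71 (-2.96 to -2.59), and 35.8 CPM (31.3 to 40.8) in LNCaP-ENZ168. RAD51C, the paralogue present in both paralogue complexes, was at 79.6, 31.6 and 91.2 CPM, with a VCaP ratio of -1.31 (-1.49 to -1.18). XRCC2 was at 46.2, 14.6 and 24.2 CPM, a ratio of -1.60 (-1.88 to -1.44). RAD54B, a motor protein that acts on strand exchange, was at 16.3, 4.55 and 5.70 CPM, a ratio of -1.64 (-2.25 to -1.45). RAD51D stayed within 2-fold at 17.2, 13.8 and 19.5 CPM, a ratio of -0.30 (-0.58 to -0.06). Below the minimum were RAD51B at 2.31, 1.75 and 7.13 CPM, XRCC3 at 3.23, 1.19 and 4.28 CPM, and RAD54L at 7.74, 1.19 and 6.81 CPM. Of these 3, the VCaP interval held 0 for RAD51B only, and RAD54L rested on 17 UMIs in VCaP-ENZ48. The exons of RAD54B overlap those of FSBP on the same strand, so reads could be split between them.

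End sensing and resection differed from the groups above, with a median ratio of -0.27 and 1 of 4 genes lower. MRE11, RAD50 and NBN form the complex that binds broken ends. MRE11 was at 45.8 CPM in VCaP parental, 40.7 CPM in VCaP-ENZ48 and 53.2 CPM in LNCaP-ENZ168, a VCaP ratio of -0.17 (-0.32 to -0.02). NBN was at 85.4, 65.2 and 130 CPM, a ratio of -0.38 (-0.51 to -0.27). RAD50 (chromosome 5, 132556019 to 132646349, plus strand) was at 19.1 CPM (17.2 to 21.1), 27.6 CPM (24.96 to 30.5) and 12.99 CPM (10.3 to 16.1). VCaP-ENZ48 was thus the highest library for RAD50, with a ratio of 0.51 (0.33 to 0.74). The subunits of the complex therefore kept within 2-fold and did not share a direction. RBBP8, which starts resection with that complex, was the lower gene of this group, at 88.1, 38.7 and 49.9 CPM and a ratio of -1.17 (-1.33 to -1.05).

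Both genes of the dissolution complex past the minimum were lower, though BLM passed only through VCaP parental. BLM (chromosome 15, 90717346 to 90816166, plus strand), a helicase that takes joined DNA molecules apart, was at 27.6 CPM (25.3 to 30.0) in VCaP parental. It was at 3.57 CPM (2.66 to 4.69) in VCaP-ENZ48 and 5.70 CPM (3.99 to 7.89) in LNCaP-ENZ168, and the VCaP ratio was -2.65 (-3.39 to -2.54). Both ENZ libraries were low and their intervals overlapped. RMI1, its scaffold, was at 54.4, 22.2 and 62.1 CPM, a ratio of -1.25 (-1.48 to -1.11). RMI2 lay below the minimum at 4.30, 2.10 and 3.17 CPM.

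The Fanconi core, which places ubiquitin on the ID pair, was divided, with 3 of 6 genes lower and 3 within 2-fold. FANCB was at 20.2, 5.31 and 4.12 CPM in VCaP parental, VCaP-ENZ48 and LNCaP-ENZ168, a VCaP ratio of -1.75 (-2.30 to -1.57). FANCG, a subunit of the FANCA module, was at 23.1, 7.20 and 18.1 CPM, a ratio of -1.55 (-2.002 to -1.37). FANCL, the ubiquitin ligase itself, was at 38.4, 18.4 and 19.0 CPM. Its ratio of -1.02 (-1.27 to -0.86) lay at the threshold and was -0.92 with totals free of mitochondrial and ribosomal protein genes and -0.96 among barcodes ending in a base. FANCM, a translocase that anchors the core on DNA, was at 21.0, 14.9 and 21.4 CPM, a ratio of -0.47 (-0.74 to -0.25). FANCC was at 12.04 CPM (10.6 to 13.7), 14.3 CPM (12.4 to 16.4) and 13.3 CPM (10.6 to 16.5). These 3 intervals overlapped, and the FANCC ratio of 0.23 (-0.03 to 0.52) turned to -0.04 with TMM factors and -0.19 with median-of-ratios factors. FANCF was at 17.0 CPM (15.2 to 18.9), 15.3 CPM (13.4 to 17.5) and 49.3 CPM (43.9 to 55.1). The VCaP libraries overlapped for FANCF, with a ratio of -0.14 (-0.40 to 0.10), and LNCaP-ENZ168 stood above them. FANCA, at 2.97, 0.280 and 7.92 CPM (58, 4 and 50 UMIs), and FANCE, at 1.38, 0.909 and 2.53 CPM (27, 13 and 16 UMIs), lay below the minimum.

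The Fanconi ID pair was lower as a pair. FANCD2 (chromosome 3, 10026370 to 10101932, plus strand) was at 53.9 CPM (50.7 to 57.3), 11.3 CPM (9.65 to 13.2) and 37.1 CPM (32.5 to 42.1), a VCaP ratio of -2.16 (-2.50 to -2.01). FANCI, with which it clamps onto DNA, was at 84.4 CPM (80.4 to 88.6), 16.2 CPM (14.2 to 18.5) and 42.8 CPM (37.8 to 48.2), a ratio of -2.31 (-2.58 to -2.18). For FANCD2 and FANCI alike the order was VCaP parental, LNCaP-ENZ168 and VCaP-ENZ48, with no overlap of intervals. FANCD2 has a named pseudogene, to which reads could be lost.

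The checkpoint kinases divided by tier. CHEK1 (chromosome 11, 125625163 to 125676255, plus strand), the effector kinase that slows the cycle when replication stalls, was at 93.2 CPM (88.9 to 97.5), 17.5 CPM (15.4 to 19.8) and 35.5 CPM (31.0 to 40.4). Its VCaP ratio was -2.35 (-2.61 to -2.22), although exons of CHEK1 overlap those of STT3A on the same strand. CHEK2, the effector that ATM activates at breaks, was at 28.3, 9.72 and 17.0 CPM, a ratio of -1.45 (-1.82 to -1.27). It has several named pseudogenes, to which reads could be lost. ATM (chromosome 11, 108223044 to 108369102, plus strand), the kinase that breaks activate, was at 25.4 CPM (23.2 to 27.8), 37.1 CPM (34.0 to 40.4) and 37.4 CPM (32.8 to 42.5). VCaP parental was the lowest library for ATM and both ENZ libraries overlapped, with a VCaP ratio of 0.53 (0.37 to 0.73). ATR, which exposed single strands activate, was at 18.5, 15.6 and 52.8 CPM, a VCaP ratio of -0.23 (-0.49 to -0.002). The sensor kinases thus stayed within 2-fold between the VCaP libraries and the effector kinases were lower. PARP1 (chromosome 1, 226360210 to 226408154, minus strand), which marks breaks with chains of ADP-ribose, was at 463 CPM (454 to 473), 357 CPM (348 to 367) and 488 CPM (471 to 505). Its VCaP ratio was -0.37 (-0.42 to -0.33), within 2-fold. The ratios of ATM and RAD50 fell to 0.10 and 0.08 with median-of-ratios factors, values for which no interval was made. In the main scaling they lay just above the upper quartile of all genes, 0.45.

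**Figure D2:**
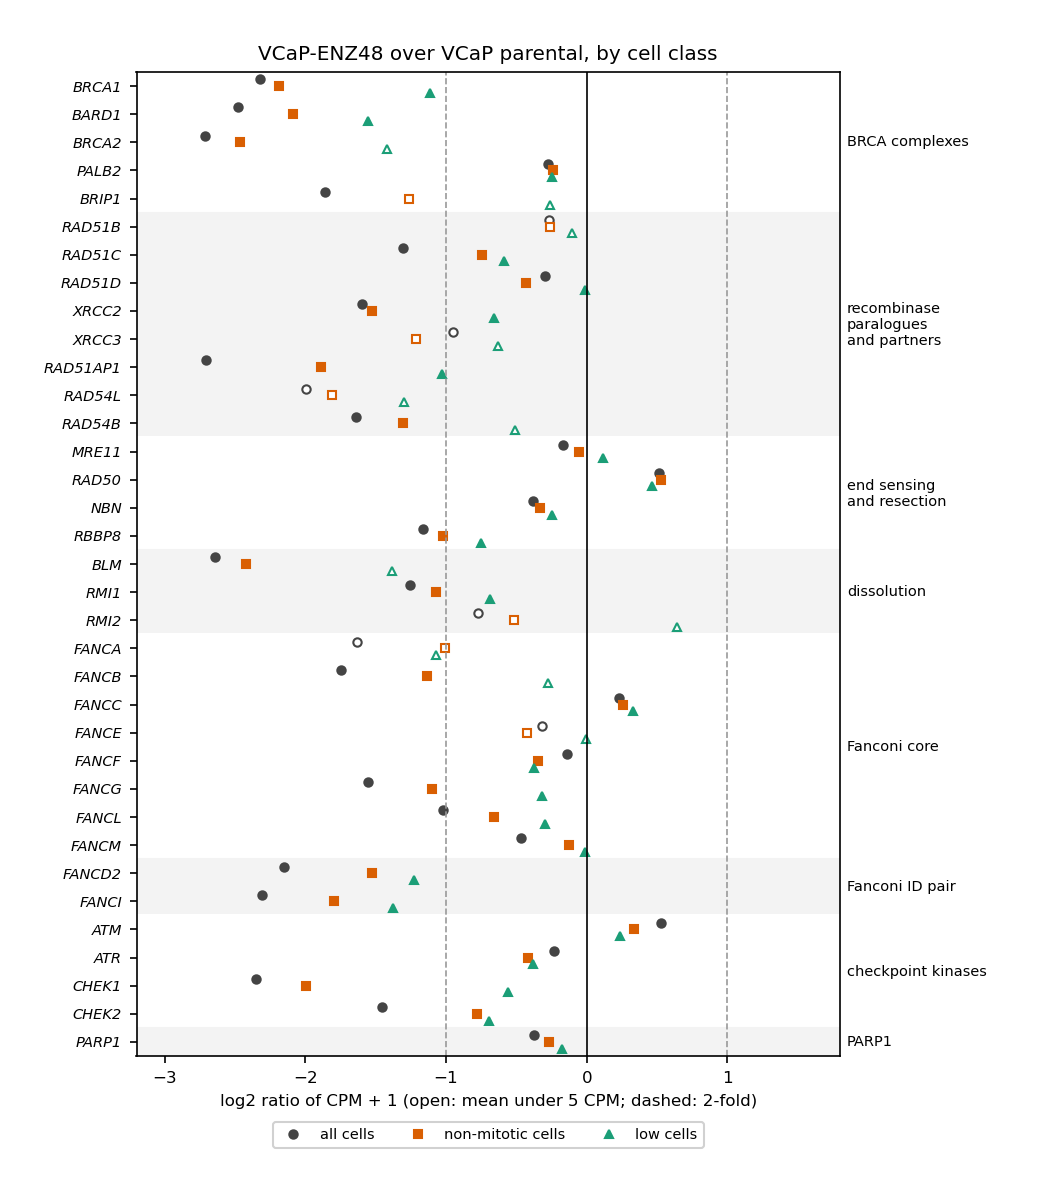
Log2 ratio of CPM + 1, VCaP-ENZ48 over VCaP parental, for each gene in all cells, non-mitotic cells and low cells. Open symbols mark a mean under 5 CPM and dashed lines 2-fold. Lower genes number 18 in all cells, 14 in non-mitotic cells and 5 in low cells, and no symbol past the minimum lies beyond 2-fold on the higher side.

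Because recombination follows the cell cycle, cells were divided by UMIs of a mitotic list and an S phase list that hold none of the 35 genes, counted after each cell was thinned to 2000 UMIs. Mitotic cells had at least 6 mitotic UMIs, S-high cells at least 6 S phase UMIs and at most 2 mitotic, and low cells at most 2 of each. The mitotic class had no limit on S phase UMIs, so its name gives the list and not a phase. In VCaP parental the S phase list summed to 4295 CPM in mitotic, 5184 CPM in S-high and 782 CPM in low cells. Levels then used all UMIs of the cells. Mitotic cells were 48.7% of VCaP parental (exact binomial 95% interval 45.5 to 51.8%), 3.49% of VCaP-ENZ48 (2.40 to 4.89%) and 17.4% of LNCaP-ENZ168 (15.0 to 20.0%). Low cells were 20.0%, 80.0% and 55.0%. The summed level of the 35 genes also differed between classes of a library. In VCaP parental it was 967 CPM in 199 low cells, 1946 CPM in 67 S-high cells and 2043 CPM in 485 mitotic cells. In LNCaP-ENZ168 it was 1306 CPM in 519 low cells and 2795 CPM in 164 mitotic cells, and in VCaP-ENZ48 it was 779 CPM in 734 low cells and 1708 CPM in 32 mitotic cells. Low cells were below mitotic cells in every library.

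Inside VCaP parental, S-high cells exceeded low cells by 2-fold or more for 18 of the 30 genes past the minimum, against 3.46% of all genes, with a median ratio of 1.28. BRCA2, BRIP1, RAD54L and RAD54B, 4 of the 18, passed the minimum only through the S-high cells. CHEK1 went from 14.9 CPM in low cells to 148 CPM in S-high cells, a ratio of 3.22 (2.85 to 3.78). BRCA1 was at 11.1 CPM in low and 94.6 CPM in S-high cells, with a ratio of 2.98 (2.55 to 3.65). Mitotic cells exceeded low cells for 18 of 30 genes as well, against 4.91% of all genes, with a median of 1.43, and the same 4 genes passed only through the mitotic cells. RAD51AP1 had the highest of these ratios, from 17.0 to 192 CPM, or 3.42 (3.12 to 3.90). ATM went the other way, from 32.8 CPM in low cells to 23.2 CPM in mitotic cells, a ratio of -0.49 (-0.84 to -0.16). The cells of a class come from 1 library and are no replicates.

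The genes that were high in cycling VCaP parental cells were largely those that were lower in VCaP-ENZ48. Of the 18 lower genes, 16 were 2-fold or more higher in S-high than in low cells, the others being RAD51C at 0.79 (0.43 to 1.18) and CHEK2 at 0.89 (0.19 to 1.69). In mitotic cells 17 of the 18 were higher, all but RBBP8 at 0.86 (0.64 to 1.10). Of the 11 genes within 2-fold between the libraries, only RAD51D was higher in S-high cells, with a ratio of 1.19 (0.59 to 1.91), and 0 were higher in mitotic cells. VCaP parental cells enter both comparisons, so the shared members are a description and no independent evidence.

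**Figure D3:**
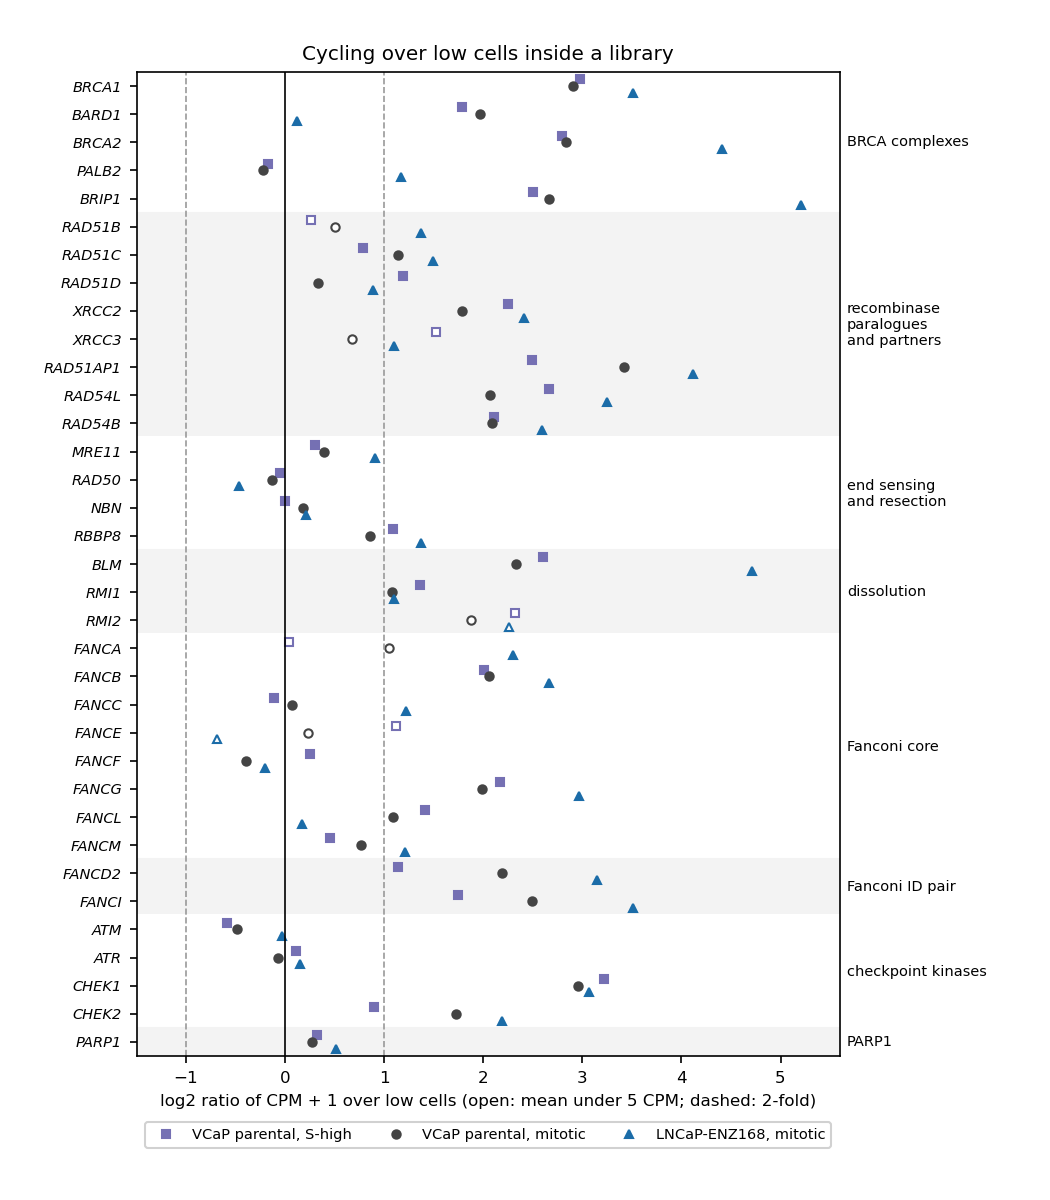
Log2 ratio of CPM + 1 over low cells of the same library, for S-high and mitotic cells of VCaP parental and mitotic cells of LNCaP-ENZ168. Open symbols mark a mean under 5 CPM and dashed lines 2-fold. BRCA1, BRCA2, BRIP1, RAD51AP1, BLM and CHEK1 lie far to the right in both libraries, ATM, RAD50 and NBN lie near 0, and BARD1 lies near 2 in VCaP parental and at 0.12 in LNCaP-ENZ168.

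The VCaP comparison was therefore repeated in cells matched for these lists. Among non-mitotic cells, with at most 2 mitotic UMIs, 340 cells of VCaP parental and 834 of VCaP-ENZ48 remained. Of 28 genes past the minimum, 14 were lower and 0 higher, against 3.88% and 8.88% of all genes, with a median ratio of -0.90. BRCA2, RAD54B, BLM and FANCB, 4 of the 14, passed the minimum only through VCaP parental. BRCA2 was at 13.8 CPM in VCaP parental and 1.70 CPM in VCaP-ENZ48, a ratio of -2.46 (-3.78 to -2.34). BRCA1 was at 34.1 and 6.70 CPM, a ratio of -2.19 (-2.73 to -1.98). CHEK1 was at 47.4 and 11.2 CPM, or -1.99 (-2.38 to -1.79). RAD51C, FANCL and CHEK2, lower by 2-fold over all cells, were within it here at -0.74, -0.66 and -0.78. The count was 5, against 3.43% of all genes, when a G2M list of wider use replaced the mitotic list. It was 9, against 3.95%, when no mitotic UMI was allowed. S phase transcripts were not matched in this class and summed to 1922 CPM in VCaP parental against 637 CPM in VCaP-ENZ48.

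Among low cells the difference was smaller. Of 24 genes past the minimum, 5 were lower and 0 higher, against 3.10% and 8.64% of all genes, and the median was -0.38. The 5 were BRCA1, BARD1, RAD51AP1, FANCD2 and FANCI. BARD1 was at 22.6 CPM (77 UMIs) in VCaP parental and 7.04 CPM (81 UMIs) in VCaP-ENZ48, a ratio of -1.55 (-2.15 to -1.21). FANCI was at 20.8 and 7.38 CPM, or -1.38 (-1.97 to -1.02), and FANCD2 at 15.8 and 6.17 CPM, or -1.23 (-1.89 to -0.82). BRCA1 was at 11.1 CPM (38 UMIs) and 4.60 CPM (53 UMIs), or -1.12 (-1.90 to -0.63), and passed the minimum only through VCaP parental. CHEK1, at 14.9 and 9.82 CPM, was within 2-fold at -0.56 (-1.10 to -0.10). BRCA2 and BLM lay below the minimum, on 16 and 13 UMIs for BRCA2 and 21 and 20 for BLM. So did BRIP1, RAD54B and FANCB, which like them were lower over all cells. Their ratios were -1.42 for BRCA2, -1.39 for BLM, -0.26 for BRIP1, -0.51 for RAD54B and -0.27 for FANCB. Without a minimum, 9 genes were lower and 0 higher, against 1.56% and 7.13% of all genes.

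The classes were not fully matched, since the mitotic list still summed to 576 CPM in low cells of VCaP parental and 230 CPM in those of VCaP-ENZ48, and the S phase list to 782 and 537 CPM. The part of these transcripts in the remaining difference was not tested. The count of 5 ranged from 2 to 9 over 19 alternatives. Among barcodes ending in N it was 2, against 3.04% of all genes, and among those ending in a base it was 7, against 5.79%. With no UMI of either list allowed, an alternative chosen after seeing the data, 1 gene was higher, against 13.1% of all genes.

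LNCaP-ENZ168 over VCaP-ENZ48 set the ENZ libraries of different lines and times side by side, so these values compare libraries and not an effect of the drug. Of 27 genes past the minimum, 11 were higher in LNCaP-ENZ168 and 1 was lower, against 35.5% and 13.3% of all 11196 genes. The share of higher genes in the set was thus near the background. The median ratio was 0.93 against 0.64 for all genes. The higher genes were BRCA1, BARD1, BRCA2, BRIP1, RAD51C, RMI1, FANCF, FANCG, FANCD2, FANCI and ATR, and the lower gene was RAD50. BRCA2, BRIP1 and RAD54B passed the minimum only through LNCaP-ENZ168, the first 2 of them among the higher genes. TMM factors shifted the all-gene median by -0.53 and median-of-ratios factors by -0.55. Either left 7 genes higher and 1 lower, with a background of 19.9% lower and 18.5% higher for TMM and 20.3% and 18.1% for median-of-ratios.

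BARD1 had the highest ratio at 4.28 (4.16 to 4.64), and remained at 3.75 or more under each scaling. Among genes past the minimum BRCA2 followed at 2.25 (2.06 to 3.03) and BRIP1 at 1.75 (1.50 to 2.68), whose VCaP-ENZ48 values rest on 52 and 39 UMIs. BRCA1, at 1.55 (1.34 to 1.91), did not keep pace with its partner. ATR, at 1.70 (1.51 to 2.01), and FANCF, at 1.62 (1.43 to 1.94), were higher by more than 2-fold under each scaling. RAD50 was at -1.03 (-1.45 to -0.74), at the threshold, and was -0.92 among barcodes ending in a base. FANCC, at -0.09 (-0.48 to 0.27), and ATM, at 0.01 (-0.22 to 0.23), held 0 in their intervals. ATM turned to -0.51 with TMM factors, and PARP1, at 0.45 (0.38 to 0.51), turned to -0.08.

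**Figure D4:**
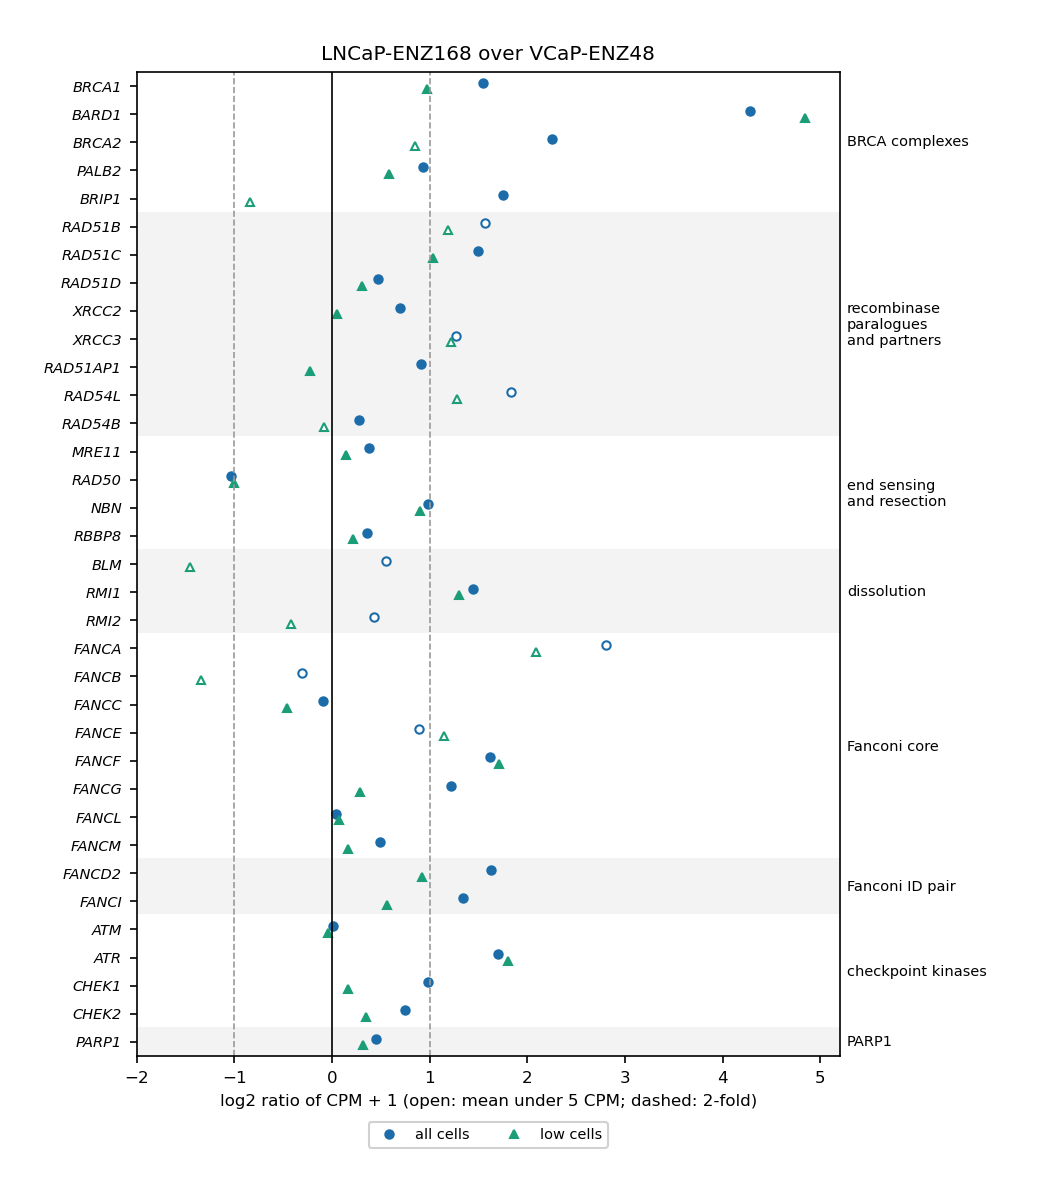
Log2 ratio of CPM + 1, LNCaP-ENZ168 over VCaP-ENZ48, for each gene in all cells and in low cells. Open symbols mark a mean under 5 CPM and dashed lines 2-fold. BARD1 stands apart at 4.28 in all cells and 4.84 in low cells, and most symbols of low cells lie to the left of those of all cells.

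In non-mitotic cells of these libraries 5 of 24 genes were higher and 0 lower, against 35% and 13.7% of all genes, with a median of 0.34. In low cells 5 of 24 were higher and 1 lower, against 35.2% and 13.7%, with a median of 0.31 against 0.63 for all genes. The set's median lay below the all-gene median by 0.28 in non-mitotic and 0.32 in low cells, and above it by 0.29 in either class when no minimum was applied. TMM factors gave 3 higher and 2 lower genes in each class, against a background of 16.5% and 21.99% in non-mitotic cells and 16.4% and 22.3% in low cells. The 5 higher genes in low cells were BARD1, RAD51C, RMI1, FANCF and ATR, and the lower gene was RAD50. ATR was at 51.0 CPM in LNCaP-ENZ168 and 13.9 CPM in VCaP-ENZ48, a ratio of 1.81 (1.56 to 2.19). FANCF was at 51.9 and 15.1 CPM, or 1.72 (1.47 to 2.09). RAD51C, at 61.3 and 29.4 CPM, and RMI1, at 47.6 and 18.8 CPM, were within 2-fold with TMM factors, and RAD50, at 13.4 and 27.9 CPM, was within 2-fold under several alternatives.

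Within LNCaP-ENZ168, mitotic cells exceeded low cells for 23 of 33 genes past the minimum, against 5.74% of all genes, with a median ratio of 1.37. Of the 23 higher genes, 9 passed the minimum only through the mitotic cells. These were BRCA2, BRIP1, RAD51B, XRCC3, RAD54L, RAD54B, BLM, FANCA and FANCB. BRCA1 went from 9.98 CPM in low cells to 124 CPM in mitotic cells, a ratio of 3.51 (3.10 to 4.21). FANCI went from 11.4 to 141 CPM, or 3.51 (3.12 to 4.16), and RAD51AP1 from 6.56 to 131 CPM, or 4.12 (3.68 to 5.01). BLM had 0 UMIs in the low cells and 32 in the mitotic cells, which is at least 29.4-fold higher against the 3 UMIs that a count of 0 allows over the class. BARD1 was the exception among the BRCA complexes, at 229 CPM in low cells and 248 CPM in mitotic cells, a ratio of 0.12 (-0.08 to 0.31). FANCL, at 17.4 and 19.7 CPM, was the other gene lower in VCaP-ENZ48 that stayed within 2-fold here.

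BARD1 thus differed little between the classes of LNCaP-ENZ168, where BRCA1 differed widely, and both genes differed between the classes of VCaP parental. In the latter, BARD1 went from 22.6 CPM in low cells to 91.1 CPM in mitotic cells and BRCA1 from 11.1 to 89.8 CPM. In thinned low cells a BARD1 UMI was found in 35.3% of LNCaP-ENZ168 cells (exact binomial 95% interval 31.2 to 39.5%), 5.03% of VCaP parental cells (2.44 to 9.05%) and 1.50% of VCaP-ENZ48 cells (0.75 to 2.67%). The share in LNCaP-ENZ168 mitotic cells was 34.8% (27.5 to 42.6%). A BRCA1 UMI was found in 3.08% of thinned low cells of LNCaP-ENZ168 (1.77 to 4.96%) and 17.7% of its mitotic cells (12.2 to 24.4%). Before thinning, the BARD1 shares in low cells were 65.3%, 29.7% and 8.86%, at median depths of 5467, 15816 and 12157 UMIs. No cell type that lacks BARD1 was at hand to set the level of free RNA. Annotation shows no gene whose exons overlap those of BARD1 and no named pseudogene.

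Other genes of the pathway were set beside the 35. A list of 63 further homologous recombination and Fanconi genes, 62 of them found, had 17 lower and 2 higher of 56 tested between the VCaP libraries. The median was -0.49. For this and the lists below, 5.95% of all genes were lower in that pair and 10.5% higher. CLSPN, which brings CHEK1 to ATR, was at 96.7 and 8.46 CPM, a ratio of -3.37 (-3.79 to -3.25), and UBE2T, the enzyme that passes ubiquitin to FANCL, at 222.5 and 31.3 CPM, a ratio of -2.79 (-2.98 to -2.69). CLSPN is also on the S phase list used to divide the cells, and it is not the only gene the lists share. ABRAXAS1, a scaffold of a BRCA1 complex, was higher at 5.84 and 23.3 CPM, a ratio of 1.83 (1.68 to 2.32). The end joining list, the competing repair route, had 1 lower and 0 higher of 11, with a median of -0.40, and the lower gene was XRCC5 at -1.07 (-1.14 to -1.01). DNA replication genes had 25 lower of 29 with a median of -1.69, and mitotic genes 45 lower of 45 with a median of -3.28. The 35 genes, at -1.31, lay between end joining and replication.

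In low cells the order was alike, with medians of -0.20 for the further recombination genes, -0.19 for end joining, -0.38 for the 35 genes, -0.56 for replication and -1.43 for the mitotic list. Low cells were chosen by few UMIs of the mitotic and S phase lists. Medians of genes on those lists are therefore not independent of that choice, and the order here is a description only. Between LNCaP-ENZ168 and VCaP-ENZ48 the further recombination genes had 32 higher and 0 lower of 61, with a median of 1.02. Of all genes, 35.5% were higher in this pair and 13.3% lower. H2AX, the histone variant phosphorylated at breaks, was at 42.1 and 7.13 CPM, a ratio of 2.41 (2.23 to 2.91). POLQ, the polymerase of an alternative end joining route, was at 19.2 and 3.29 CPM, a ratio of 2.23 (2.05 to 3.06). End joining had 4 higher of 11 with a median of 0.39, a share near that of all genes. Replication had 16 of 30 with 1.05 and the mitotic list 34 of 44 with 1.75, against a median of 0.64 for all genes.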

How the data were processed

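Single-cell RNA was measured in 3 Drop-seq libraries, VCaP parental, VCaP-ENZ48 and LNCaP-ENZ168, grouped by the cell line and treatment in the labels. The deposited files hold raw UMI counts of genes by cells, made by the authors with Drop-seq tools, STAR and Picard against GRCh38 with Gencode annotation, with 1000 cells expected per sample. No replicate libraries exist among them, and doublets were neither marked nor removed.

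A barcode was kept if it had 300 genes and 500 UMIs or more and no more than 25% of its UMIs from mitochondrial genes. UMIs of the kept cells were summed per library or cell class and scaled to CPM, and ratios were taken as log2 of CPM + 1. Genes of mean at least 5 CPM in a pair were compared, and a 2-fold difference was called. The 95% intervals are exact Poisson ones for levels, conditional ones for ratios of counts and binomial ones for shares of cells. With 1 library per group no test was possible, and intervals cover counting error only. Cells were thinned to 2000 UMIs before they were divided into classes. Python 3.11.15, numpy 2.4.6, pandas 2.3.3, scipy 1.17.1, matplotlib 3.10.9 and R 4.3.3 with edgeR 4.0.16, for TMM factors only, were used. The scripts were tested on simulated data.

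Totals per kept library ran from 6313283 to 19515202 UMIs, so that 3 UMIs, the upper limit that a count of 0 allows, equal 0.154 CPM for VCaP parental, 0.210 CPM for VCaP-ENZ48 and 0.475 CPM for LNCaP-ENZ168. Gene coordinates come from a later Gencode annotation of GRCh38 and promoters from RefSeq on GRCh38.p14, with 31 of 35 genes matched. Same-strand exons of another gene overlap 9 of the genes, antisense exons 21, and 7 have named pseudogenes, so their counts are uncertain where reads could be split. Alternatives covered the cell filter, barcode ends, scaling, pseudocount, minimum level, thinning and class limits.

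The 35 genes and the other gene lists were chosen with earlier results of these data known. All 35 are given with their levels, and fuller values were given by rule to BRCA1, BRCA2, FANCD2, ATM and PARP1. Among genes past the minimum, they were also given to the 6 lowest and 4 highest ratios between the VCaP libraries. The same held for the 3 lowest and 3 highest between LNCaP-ENZ168 and VCaP-ENZ48. At most 4 genes of any other list were named, the 2 lowest and 2 highest ratios. Other genes with class values were chosen after their values were seen.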

Additional observations from a re-analysis of the deposited data

How the results depend on the processing

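Across 13 alternatives, 17 to 20 of the genes were lower between the VCaP libraries and 0 were higher. The share of all genes lower ran from 2.28% with no minimum to 16.4% with median-of-ratios factors. In non-mitotic VCaP cells the 14 lower genes became 9 with a pseudocount of 5 CPM, a minimum of 10 CPM, 0 mitotic-list UMIs or 0 UMIs of each list. Of all genes, 2.55% to 4.01% were lower in these settings. A G2M list in place of the mitotic list gave 5, with a median relative to all genes of -0.45. In low VCaP cells the 5 lower genes became 3 with equal weight of cells or thinning to 4000 UMIs, 2 with a pseudocount of 5 CPM or barcodes ending in N, and 9 with no minimum. With 0 UMIs of each list, 1 gene was higher. For LNCaP-ENZ168 over VCaP-ENZ48, the 11 higher genes became 7 with TMM or median-of-ratios factors, and the 1 lower gene became 0 with barcodes ending in a base or a pseudocount of 5 CPM. With no minimum the median relative to all genes was 0.88. In non-mitotic cells of that pair the 5 higher genes became 8 (barcodes ending in a base, G2M list), 3 (TMM, median-of-ratios) and 11 (minimum of 1 CPM or none). The 0 lower genes there became 2 with TMM or median-of-ratios factors and with a minimum of 1 CPM or none. They became 1 with 0 UMIs of each or of the mitotic list, at most 10% mitochondrial UMIs, barcodes ending in N, another thinning seed, or totals without mitochondrial and ribosomal protein genes. Relative to all genes, the median of -0.28 became 0.23 as a mean and 0.29 with no minimum. In low cells the 5 higher genes became 10 with no minimum, 9 with a minimum of 1 CPM and 3 with TMM or median-of-ratios factors. The 1 lower gene became 0 with the G2M list, equal weight, no cell filter, barcodes ending in a base, a pseudocount of 5 CPM or without barcodes above 3 times the median depth. It became 2 with TMM or median-of-ratios factors or a minimum of 1 CPM, and 3 with 0 UMIs of each list or no minimum. The median of -0.32 became 0.21 as a mean and 0.29 with no minimum. The share of all genes called moved with the setting as well. For LNCaP-ENZ168 over VCaP-ENZ48, it ran from 16.5% to 36.9% higher in non-mitotic cells and from 16.0% to 36.7% in low cells. With no minimum it was 17.85% and 18.5%. The cause of these shifts was not tested.

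Higher genes numbered 15 to 21 in S-high and 16 to 20 in mitotic cells of VCaP parental over its low cells, and 18 to 25 in mitotic cells of LNCaP-ENZ168. The shares of all genes higher ran from 2.12% to 21.6%, 2.79% to 9.83% and 4.30% to 11.4% in that order. Chosen after seeing the data were the alternatives with 0 UMIs of each list or only barcodes ending in N, all alternatives in low cells, and the class comparison inside LNCaP-ENZ168. No paired analysis was possible because a group never held more than 1 library, and for that reason no replicate could be left out. Depth limits most the genes below 5 CPM, among them FANCA with 4 UMIs in VCaP-ENZ48.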
